A study of Mus musculus with 9 samples.

Results

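Imprinted genes are transcribed only or mostly from the maternal or the paternal copy, in some genes only in certain tissues. In most cases this follows methylation marks that were set in the egg or the sperm. Many of them lie in clusters, called domains, in which a few control regions set the allele for neighbouring genes, and long non-coding RNAs often come from the copy opposite to the coding genes. The family is known for genes of fetal growth: as a rule, paternally expressed members favour growth and maternally expressed members restrain it, and the level of several of them falls after birth in many organs. The 34 mouse genes described here were taken from a list of imprinted genes by their symbol, in a table of 48820 rows. In all, 33 were found by symbol and *Rian*, whose row has no symbol, by its Ensembl identifier. *Dlk1* and *Rtl1* were each listed under 2 identifiers with equal values and were counted once. By the parental copy from which textbooks have them expressed, 20 of the 34 are paternal, 13 are maternal, and *Gnas* has transcripts of either copy and was kept apart. *Grb10*, which is paternally expressed in neurons, was put with the maternal genes. The reads do not tell the alleles apart, so that the 2 classes are names from background and not measurements.

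The hearts came from wild-type (WT) C57BL/6J mice without treatment, 3 biological replicates each at embryonic day 18.5 (E18.5d), postnatal day 1 (P1d) and postnatal day 7 (P7d), and their total RNA was sequenced. The authors' values are FPKM, sequenced fragments per kilobase of transcript, scaled to the mapped fragments of the library, so that levels can be compared between genes. The depth recovered from the steps of low values was 25.5 to 44.75 times 1e6 fragments per heart. All 9 hearts are labelled male, but 4 of them, E18.5d hearts 1 and 3 and P7d hearts 2 and 3, went against this label. In those 4, *Xist*, the RNA of the inactive X chromosome, stood at 58.0 to 97.0 FPKM and 4 Y-linked genes were each listed at 0, against at most 0.11 FPKM of *Xist* and at least 9.74 FPKM of each Y-linked gene in the other 5. The P1d hearts all bore out the label, and results are also given with these hearts left out or with this difference as a term. Cardiomyocyte markers were abundant at every stage (summed FPKM of 10 genes from 39828 to 47762), and thymus markers reached at most 0.37 FPKM in sum.

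Tests used limma on log2(FPKM + 1). A single fit took in 13618 genes, those that averaged 1 FPKM or more over the hearts, and p-values were adjusted over all of them by Benjamini-Hochberg, with a threshold of 0.05. Of the 34 imprinted genes 29 entered this fit, 18 paternal, 10 maternal and *Gnas*. The other 5 (*Phlda2*, *Ascl2*, *Slc22a18*, *Magel2* and *Rtl1*) had lower means and were left out of the counts and medians of the fit below. Only the alternative with no filter took them in, apart from *Phlda2*. The median change of all genes tested was not 0 but −0.17 (log2) at P7d against E18.5d, −0.06 at P1d against E18.5d and −0.09 at P7d against P1d. In a bulk sample, fewer cells of a type and less RNA per cell cannot be told apart.

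Most of the imprinted genes were lower in the P7d than in the E18.5d heart. Of the 29 tested, 25 passed the test as lower and 2, *Snrpn* and *Peg13*, as higher, beside 36.9% and 12.5% of all genes tested. *Ppp1r9a* and *Gnas* did not pass. The median change of the 29 was −1.14 (log2), and 17 of them had a P7d mean under 50% of their E18.5d mean, as did 6.27% of all genes tested. By P1d, 17 were lower and 3 higher than at E18.5d, beside 27.6% and 18.4% of all genes, with a median of −0.37. From P1d to P7d, 19 were lower and 0 higher by limma, beside 28.6% and 15.5%, with a median of −0.69. The first 2 of these comparisons share the E18.5d hearts, the last 2 the P1d hearts, and the first and the last the P7d hearts. Scaling the columns by the median of ratios moved the split of all genes at P7d against E18.5d from 1706 higher and 5025 lower to 2905 and 2848, and that of the imprinted genes from 2 and 25 to 2 and 22. At P1d against E18.5d, scaling to an equal sum gave 0 imprinted genes higher and 20 lower, beside 1175 and 4694 of all genes. At P7d against P1d, quantile normalization gave 2 imprinted genes higher and 16 lower, beside 2879 and 2787 of all genes. With only the 5 hearts that bore out the male label, 1 heart was left at E18.5d and 1 at P7d. These were assumed to vary like the others. The median log2 change of the imprinted genes was then −1.0, −0.41 and −0.62 in the 3 comparisons in the order above. That of all genes was −0.17, −0.08 and −0.08. Fewer genes passed in this smaller fit, among the imprinted genes and among all genes. With the *Xist* difference as a term in the fit of all 9 hearts, 24, 14 and 17 imprinted genes were lower and 2, 1 and 0 higher. Of all genes, 4820, 2893 and 2438 were then lower and 1631, 1607 and 1467 higher.

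**Figure D1:**
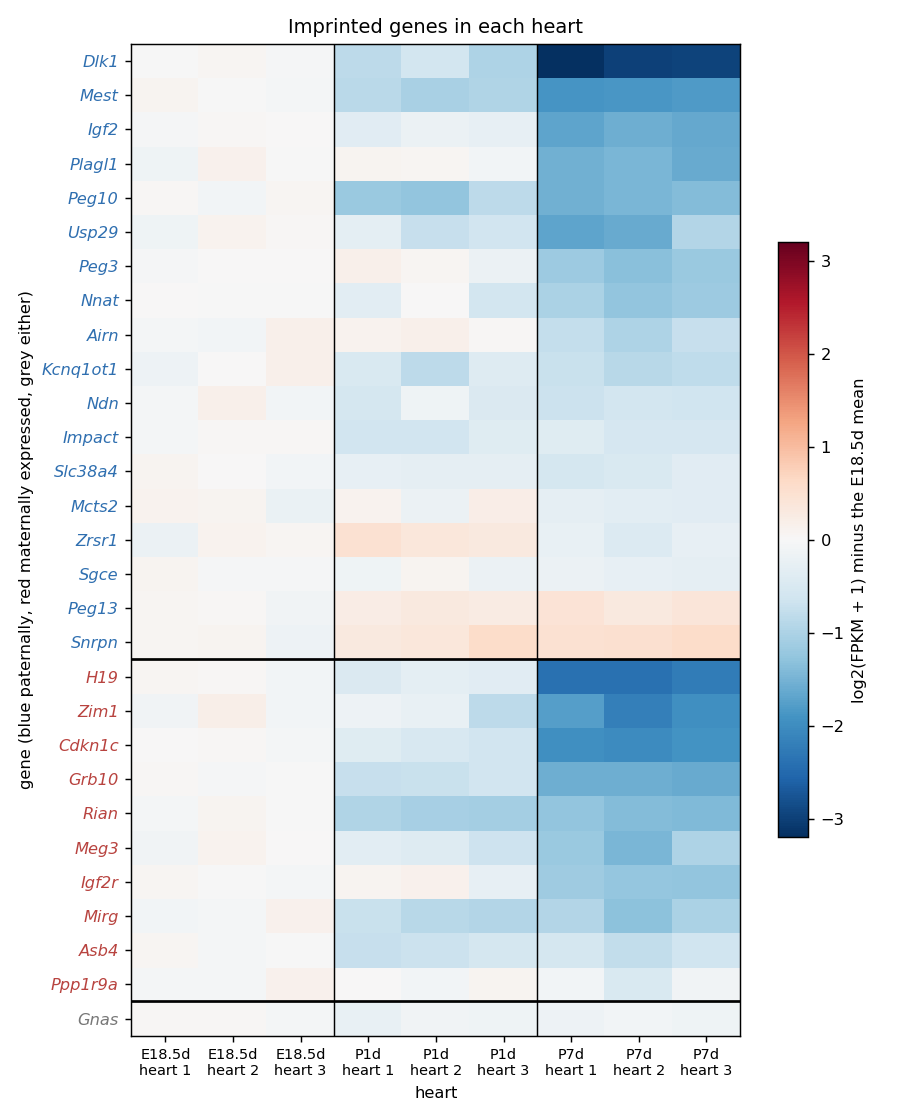
Level of the 29 imprinted genes tested in each of the 9 hearts, as log2(FPKM + 1) minus the mean of the 3 E18.5d hearts of that gene (colour; blue lower, red higher), with genes in rows grouped by expressed copy and hearts in columns. The P7d columns are blue in most rows, darkest in *Dlk1* and *H19*, while *Snrpn* and *Peg13* are red.

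Sequences are shown for *Igf2r* and *Airn* and for *Dlk1* and *Meg3*, pairs with opposite expressed copies whose ratios are described further on, and for the start region that the paternally expressed *Peg3* and *Usp29* share. They are the bases before the RefSeq start of each gene (GRCm38.p6), 5′ to 3′ on the strand of the gene, with CG dinucleotides, the sites at which methylation marks are set, in capitals. The *Igf2r* window (chr17:12769707-12769956, minus strand) holds 27 CG and the *Airn* window (chr17:12741061-12741310, plus strand), which lies inside an intron of *Igf2r*, holds 2. The *Dlk1* window (chr12:109452573-109452822) holds 8 and the *Meg3* window (chr12:109540746-109540995) holds 10, both on the plus strand. *Peg3* and *Usp29* are transcribed away from each other, and the 163 bases between their RefSeq starts (chr7:6730420-6730582, minus strand) hold 5. In GENCODE M21, from which the gene positions below come, 17 of these bases are exonic in *Peg3* or *Usp29*.
Igf2r: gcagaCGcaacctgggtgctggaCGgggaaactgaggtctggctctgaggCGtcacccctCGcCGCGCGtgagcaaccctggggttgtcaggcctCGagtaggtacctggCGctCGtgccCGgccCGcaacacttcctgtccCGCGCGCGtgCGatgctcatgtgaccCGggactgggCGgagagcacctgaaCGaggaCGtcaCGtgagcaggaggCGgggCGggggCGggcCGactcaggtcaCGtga
Airn: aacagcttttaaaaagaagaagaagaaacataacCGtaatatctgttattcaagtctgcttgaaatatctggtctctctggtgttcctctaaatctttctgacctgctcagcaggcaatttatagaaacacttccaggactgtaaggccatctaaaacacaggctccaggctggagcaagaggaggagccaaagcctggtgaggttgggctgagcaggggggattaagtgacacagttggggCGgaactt
Dlk1: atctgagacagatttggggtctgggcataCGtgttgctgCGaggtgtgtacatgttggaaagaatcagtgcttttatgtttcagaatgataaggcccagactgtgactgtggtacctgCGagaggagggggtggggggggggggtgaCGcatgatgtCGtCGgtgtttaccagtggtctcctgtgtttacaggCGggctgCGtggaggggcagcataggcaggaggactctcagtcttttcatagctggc
Meg3: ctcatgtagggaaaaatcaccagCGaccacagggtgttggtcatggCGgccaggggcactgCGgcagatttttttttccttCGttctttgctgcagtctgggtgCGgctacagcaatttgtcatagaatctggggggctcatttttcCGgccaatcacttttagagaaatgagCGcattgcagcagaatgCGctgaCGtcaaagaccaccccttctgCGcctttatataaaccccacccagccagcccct
Peg3 to Usp29: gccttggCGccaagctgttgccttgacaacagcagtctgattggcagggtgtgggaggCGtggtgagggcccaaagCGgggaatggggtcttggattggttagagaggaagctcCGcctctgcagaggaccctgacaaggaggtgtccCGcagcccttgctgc
RefSeq windows of 250 bases were found for 27 of the 34 genes, 44 windows in all, since several genes have more than 1 start. Their median was 8.0 CG, from 0 to 40, beside a median of 6.0 over all 32851 windows of the table. The 8 letters GGGGCCCC, which read the same on both strands, occur in 2 of the 44 (*Peg3* and 1 start of *Ppp1r9a*), that is 4.55%, beside 0.889% of all windows. A match of these letters is a description of the window.

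The most abundant imprinted gene at E18.5d and P1d was *H19*, a maternally expressed long non-coding RNA (chr7:142575529-142578143, minus strand). *H19* lies beside *Igf2* and is known as abundant in fetal tissues. Its level was 2274, 2233 and 2037 FPKM in the E18.5d hearts, 1590.15, 1768 and 1697 at P1d, and 414, 413 and 460.4 at P7d. The 3 stages did not overlap, and at P7d the mean (429 ± 27.2 FPKM, SD, n = 3) was 19.7% of that at E18.5d (2181 ± 127). *H19* stood at rank 36 among 48058 genes by mean FPKM at E18.5d. At P7d it stood at rank 186, below *Gnas* at rank 154. The log2 change was −2.34 ± 0.07 (SE, limma adjusted p = 1.64e-07) at P7d against E18.5d, and only 24 of the 13618 genes tested had a lower value. The fall was smaller by P1d, −0.37 ± 0.07 (adjusted p = 0.00298).

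*Igf2*, the paternally expressed gene of insulin-like growth factor 2, a secreted fetal growth factor (chr7:142650766-142666816, minus strand), followed at a lower level. It measured 692, 731 and 720.2 FPKM at E18.5d, 559.7, 629 and 597.0 at P1d, and 220.3, 243 and 229 at P7d. The stages were again apart, with the P7d mean at 32.3% of the E18.5d mean. Its log2 change was −1.63 ± 0.06 (limma adjusted p = 2.56e-07) at P7d and −0.26 ± 0.06 (adjusted p = 0.00747) at P1d. With the *Xist* difference as a term, the P1d change of *Igf2* did not pass the test.

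Its receptor on the cell surface and in the lysosomal pathway, *Igf2r*, which removes the ligand and is maternally expressed (chr17:12682406-12769664, minus strand), stayed level at first and then fell. The 3 E18.5d hearts measured 355, 339.8 and 326 FPKM, the P1d hearts 362, 374 and 286, and the P7d hearts 154, 143 and 142. The E18.5d and P1d hearts overlapped, and both lay above all P7d hearts. In log2, the change was −1.21 ± 0.10 (adjusted p = 1.49e-05, limma) at P7d against E18.5d and −0.01 ± 0.10 (adjusted p = 0.959) at P1d. The sign of the second value turned with the median of ratios and with quantile normalization.

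*Grb10*, a maternally expressed adaptor that dampens signalling of the insulin and IGF1 receptors (chr11:11930508-12038683), fell in 2 steps. It was at 404, 387 and 394 FPKM at E18.5d, at 238, 239 and 256 at P1d and at 133, 134 and 129 at P7d. No stage overlapped another, and the spread within a stage was at most 10.1 FPKM (SD). Its log2 change was −1.57 ± 0.05 (limma adjusted p = 1.64e-07) at P7d and −0.69 ± 0.05 (adjusted p = 1.13e-05) at P1d. By P1d, 57.4% of the change in mean FPKM from E18.5d to P7d had occurred, beside 28.3% for *H19* and 24.7% for *Igf2*.

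*Cdkn1c* (chr7:143458339-143461050), the maternally expressed gene of the cyclin-dependent kinase inhibitor p57, was at 73.9, 74.98 and 69.4 FPKM at E18.5d. It was at 55.2, 50.4 and 46.8 at P1d and at 17.8, 17.3 and 18.55 at P7d. All 3 stages were apart. This was a log2 change of −1.96 ± 0.07 (limma adjusted p = 1.66e-07) at P7d against E18.5d.

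*Plagl1* (chr10:13060504-13131694), a paternally expressed zinc finger transcription factor, fell only after P1d. Its values were 143, 173 and 155 FPKM at E18.5d, 166, 162 and 148 at P1d, and 53.1, 56.45 and 50.65 at P7d. E18.5d and P1d hearts overlapped and the P7d hearts were lower than all of them. The log2 change was −1.54 ± 0.08 (limma adjusted p = 1.19e-06) at P7d against E18.5d, and 0.02 ± 0.08 (adjusted p = 0.866) at P1d, a value whose sign turned under several alternatives.

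*Mest* (chr6:30723547-30748465), the paternally expressed gene of an enzyme of the alpha/beta hydrolase fold, also fell at both steps. It was at 423, 393 and 379 FPKM at E18.5d, at 217, 195 and 204 at P1d, and at 107, 109 and 112 at P7d. No stage overlapped another. This gave log2 changes of −0.95 ± 0.06 (limma adjusted p = 5.67e-06) at P1d and −1.86 ± 0.06 (adjusted p = 1.64e-07) at P7d.

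*Gnas* (chr2:174284320-174346744) codes for the stimulatory G protein alpha subunit and for further transcripts of either copy. It measured 561, 563 and 527 FPKM at E18.5d, 469, 506 and 497 at P1d and 493, 521 and 499 at P7d. The E18.5d hearts lay above the others, but the difference was small. It was lower at P1d by limma (log2 change −0.16 ± 0.06, adjusted p = 0.0387), a call that was lost under several alternatives, and at P7d the value was −0.12 ± 0.06 (adjusted p = 0.0945). With quantile normalization the P7d value was 0.20 (adjusted p = 0.011), so that the direction for *Gnas* depends on the scaling.

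**Figure D2:**
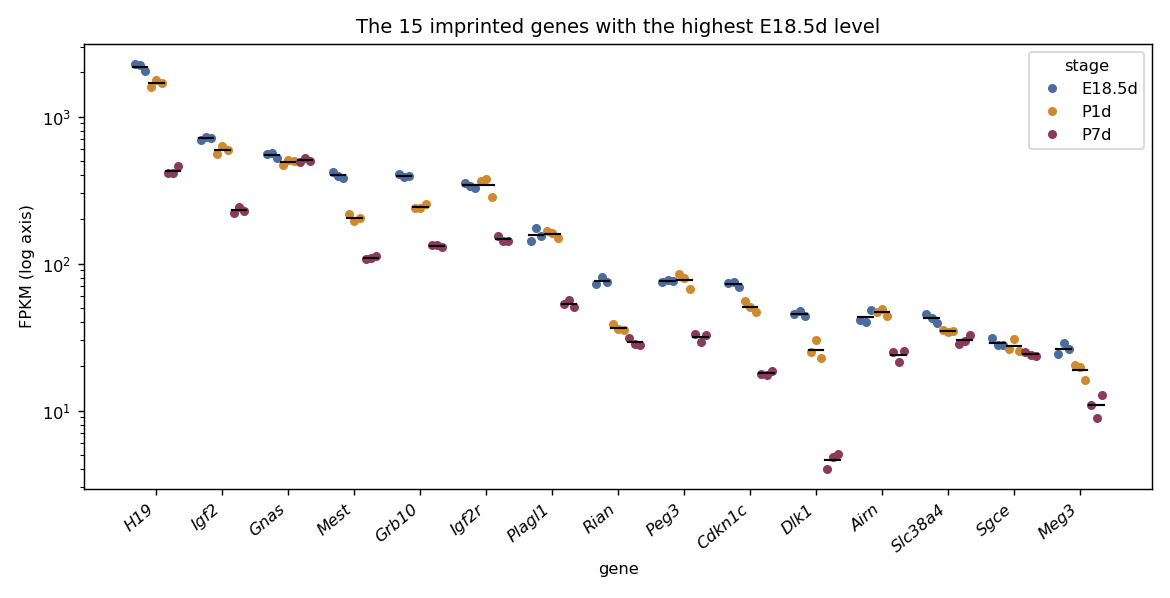
FPKM on a log axis of the 15 imprinted genes with the highest mean at E18.5d, 1 dot per heart in each stage, with the stage mean as a black bar. *H19* runs from 2274 FPKM down to 413, *Dlk1* from 47.5 to 4.01, and *Gnas* from 563 to 469.

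Together the 34 genes summed to 5064 to 5380 FPKM in the E18.5d hearts, to 4039 to 4306 at P1d and to 1838 to 1888 at P7d. *H19* gave 40.2% to 42.3% of this sum at E18.5d and 22.2% to 24.4% at P7d. The maternal genes without *H19* averaged 952 ± 17.8 FPKM (SD, n = 3) in E18.5d hearts and 359 ± 11.5 in P7d hearts, and the paternal genes without *Igf2* 872 ± 21.4 and 339.9 ± 5.73.

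The paternal and the maternal class moved the same way. At P7d against E18.5d, 16 of the 18 paternal genes tested were lower and 2 higher, with a median log2 change of −0.82, and 9 of the 10 maternal genes were lower and 0 higher, with a median of −1.28. By P1d, 9 paternal genes were lower and 3 higher (*Snrpn*, *Peg13* and *Zrsr1*, median −0.27), and 7 maternal genes were lower and 0 higher (median −0.49). From P1d to P7d, 12 paternal genes were lower (median −0.54) and 7 maternal ones (median −0.81), and 0 of either class were higher by limma. Of all genes tested, 36.9%, 27.6% and 28.6% were lower and 12.5%, 18.4% and 15.5% higher in these 3 comparisons. The median over the genes of a class, each centred on its mean over the 9 hearts, lay between 0.32 and 0.44 for the paternal and between 0.62 and 0.73 for the maternal genes in the E18.5d hearts. In the P7d hearts it lay between −0.54 and −0.33 for the paternal and between −0.82 and −0.68 for the maternal genes. The maternal median was thus farther from 0 than the paternal median in every heart of these 2 stages. The classes also differ in level, with E18.5d medians of 13.8 FPKM for the paternal and 49.6 for the maternal genes tested. The log2(FPKM + 1) scale understates changes of low genes. With a pseudocount of 0.1, the paternal and maternal median changes were −0.94 and −1.33 at P7d against E18.5d. At P7d against P1d they were −0.71 and −0.84. The difference between the classes was not tested, since the genes of a class are not replicates of it and several share a domain.

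**Figure D3:**
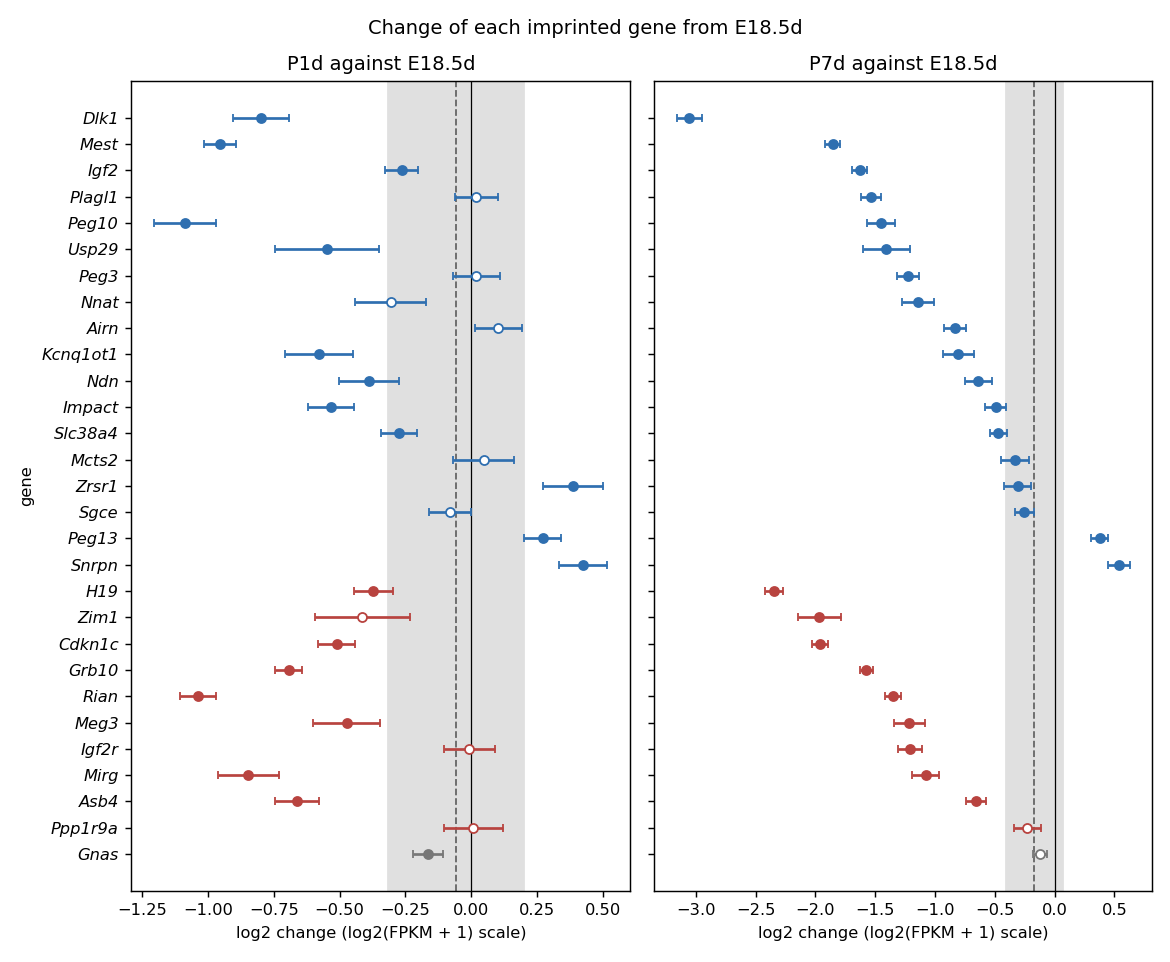
Log2 change of the 29 imprinted genes tested at P1d (left) and P7d (right) against E18.5d, with bars of 1 SE from limma, on the log2(FPKM + 1) scale. Blue marks paternally expressed genes, red maternally expressed genes and grey *Gnas*, and open dots did not pass the test. The dashed line is the median and the grey band the middle range (first to last quartile) of all 13618 genes.

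By the steps at which they passed the test, the 29 genes fell into a few patterns. There were 11 that were lower at P1d than at E18.5d and lower again at P7d than at P1d (*H19*, *Igf2*, *Cdkn1c*, *Dlk1*, *Meg3*, *Rian*, *Usp29*, *Peg10*, *Mest*, *Grb10* and *Slc38a4*). In 7 genes, *Peg3*, *Zim1*, *Igf2r*, *Airn*, *Plagl1*, *Nnat* and *Mcts2*, the second step alone passed. In 6, *Kcnq1ot1*, *Mirg*, *Ndn*, *Asb4*, *Impact* and *Gnas*, it was the first step. *Snrpn* and *Peg13* rose at the first step, *Zrsr1* was higher at P1d than at both other stages, and *Sgce* and *Ppp1r9a* passed at neither step. Of all genes tested, 27.6% were lower and 18.4% higher at the first step, and 28.6% and 15.5% at the second. The share of all genes with each pattern was not counted. These patterns depend on the processing for some genes. At the first step, *Snrpn*, *Peg13* and *Zrsr1* lost their calls with an equal sum, and *Igf2*, *Usp29*, *Zrsr1*, *Slc38a4*, *Peg13* and *Gnas* with the *Xist* term. *Usp29* and *Gnas* also lost theirs with no filter, the median of ratios and quantile normalization. At the second step, *Slc38a4* (adjusted p = 0.0447 by limma) lost its call under most alternatives, *Peg10* and *Mcts2* with no filter, an equal sum, the median of ratios and quantile normalization, and *Rian* with an equal sum. The difference between the steps was not tested.

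In the *Dlk1*-*Meg3* domain of chromosome 12, *Dlk1* showed the lowest log2 change of all 29 genes. *Dlk1*, the paternally expressed gene of a membrane protein related to Notch ligands (chr12:109452823-109463336), was at 45.4, 47.5 and 44.0 FPKM at E18.5d, 25.2, 30.0 and 22.7 at P1d, and 4.01, 4.84 and 5.02 at P7d. The stages were apart, and the P7d mean (4.62 ± 0.54 FPKM) was 10.1% of the E18.5d mean (45.6 ± 1.72). The log2 change was −3.06 ± 0.11 (limma adjusted p = 1.64e-07) at P7d, and 12 of the 13618 genes tested had a lower value. At P1d it was −0.80 ± 0.11 (adjusted p = 0.000298).

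The maternally expressed RNAs of the same domain are *Meg3*, *Rian* and *Mirg*, long non-coding RNAs that host small nucleolar RNAs and microRNAs. *Meg3* (chr12:109541001-109571726) was at 24.1, 28.6 and 26.3 FPKM at E18.5d, 20.45, 19.7 and 16.15 at P1d, and 10.96, 8.94 and 12.7 at P7d. *Rian* (chr12:109603940-109661716) was at 72.7, 81.0 and 75.3 FPKM, then 39.0, 35.9 and 35.25, then 31.35, 28.6 and 28.1 in the same order. *Mirg* (chr12:109729764-109749460) was at 8.58, 8.83 and 10.3 FPKM, then 5.24, 4.53 and 4.29, then 4.35, 3.14 and 4.07. In each of the 3 genes the P7d hearts lay below all E18.5d hearts, and in *Mirg* the P1d and P7d hearts overlapped. At P7d against E18.5d their log2 changes were −1.22 ± 0.13, −1.35 ± 0.07 and −1.08 ± 0.12 (limma adjusted p = 7.07e-05, 9.41e-07 and 8.22e-05). By P1d, *Rian* had gone through 84.3% and *Mirg* through 84.5% of the change in mean FPKM from E18.5d to P7d, beside 49.1% in *Meg3* and 48.0% in *Dlk1*. *Rtl1*, a paternally expressed gene derived from a retrotransposon, was at 0.75 to 0.93 FPKM at E18.5d and 0.28 to 0.42 at P7d and was under the filter. Fitted without the filter, its log2 change was −0.43 ± 0.08 (limma adjusted p = 0.0042). *Rtl1* lies antisense to microRNA genes of the maternal copy.

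In the *Igf2r* domain, *Airn* (chr17:12741311-12860136, plus strand), the paternally expressed antisense RNA that overlaps *Igf2r*, was at 41.4, 40.3 and 48.5 FPKM at E18.5d. It was at 46.6, 48.8 and 44.3 at P1d and at 24.9, 21.35 and 25.4 at P7d. Like *Igf2r*, *Airn* overlapped between E18.5d and P1d and was lower at P7d, with a log2 change of −0.83 ± 0.09 (limma adjusted p = 8.01e-05) against E18.5d. The bodies of the 2 genes share 28354 bases but no exonic base of the annotation, and the library kit is not stated to keep the strand, so that intronic reads of one and exonic reads of the other cannot be told apart by strand there.

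The *Kcnq1ot1* domain of chromosome 7 holds *Cdkn1c* and 3 genes listed at 0 or at low values. *Kcnq1ot1*, the paternally expressed antisense RNA of *Kcnq1* (chr7:143203458-143296549), was at 4.02, 4.58 and 5.20 FPKM at E18.5d, 2.97, 2.14 and 3.18 at P1d and 2.43, 2.01 and 2.15 at P7d. The E18.5d hearts were above the others, while P1d and P7d overlapped. Its log2 change was −0.81 ± 0.13 (limma adjusted p = 0.000799) at P7d against E18.5d. The whole *Kcnq1ot1* body of 93092 bases lies within *Kcnq1* on the other strand. *Kcnq1* averaged 23.2 ± 3.82 FPKM (SD, n = 3) at E18.5d and 20.4 ± 1.31 at P7d. Without the strand, intronic reads of *Kcnq1* cannot be told from reads of *Kcnq1ot1*. *Phlda2*, known for restraining growth of the placenta, was listed at 0 in every heart. Of 89 housekeeping genes 2 were also listed at 0 in some heart, so that a 0 in this table need not mean that the gene was silent. *Ascl2*, a transcription factor of the placenta, reached at most 0.03 FPKM, while 3 fragments of it would be worth 0.0511 to 0.0892 FPKM at the recovered depths, counting error only. *Slc22a18*, an organic cation transporter, was at 0.10 to 0.41 FPKM over the 9 hearts, and its stages overlapped.

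The *Peg3* domain lies near the centromere of chromosome 7. *Peg3*, a paternally expressed zinc finger gene (chr7:6703892-6730431), was at 74.4, 76.9 and 76.0 FPKM at E18.5d, 85.2, 79.8 and 66.7 at P1d, and 33.4, 29.2 and 32.9 at P7d. E18.5d and P1d hearts overlapped, and the P7d hearts were lower. Its log2 change came to −1.23 ± 0.09 (limma adjusted p = 9.2e-06) at P7d against E18.5d. Its neighbour *Usp29* is a paternally expressed gene of a ubiquitin-specific protease that runs in the other direction, with 163 bases between the RefSeq starts. *Usp29* was lower at P7d too (4.25, 5.25 and 5.01 FPKM at E18.5d, 3.72, 2.52 and 2.81 at P1d, 0.81, 0.91 and 2.05 at P7d). Unlike *Peg3*, *Usp29* passed the test at P1d (log2 change −0.55 ± 0.20, limma adjusted p = 0.0462), a call that most alternatives lost. *Zim1*, a maternally expressed zinc finger gene of this domain (chr7:6671269-6696450), was at 9.45, 11.8 and 9.67 FPKM at E18.5d, 8.98, 8.55 and 5.34 at P1d and 2.34, 1.46 and 1.90 at P7d. The stages of *Zim1* were apart, and its log2 change at P7d was −1.97 ± 0.18 (adjusted p = 3.35e-05).

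Within a heart, the ratio of the maternally to the paternally expressed gene of a domain does not depend on the scale of the column apart from the pseudocount. It was computed as log2 of (FPKM + 0.1) for 5 pairs. The *H19* to *Igf2* ratio was 1.716, 1.611 and 1.4996 (log2) at E18.5d, 1.51, 1.49 and 1.51 at P1d and 0.91, 0.77 and 1.01 at P7d. It was lower in all P7d hearts than in the others (difference from E18.5d −0.71). *Meg3* over *Dlk1* went the other way, from −0.91, −0.73 and −0.74 through −0.30, −0.61 and −0.49 to 1.43, 0.87 and 1.32, a difference of 2.00. In FPKM, *Dlk1* was thus above *Meg3* in the E18.5d and P1d hearts and below it in the P7d hearts. *Igf2r* over *Airn* was 3.10, 3.07 and 2.75 at E18.5d and 2.63, 2.74 and 2.48 at P7d, a small difference of −0.36. *Cdkn1c* over *Kcnq1ot1* was 4.17, 4.0038 and 3.71 at E18.5d and 2.82, 3.05 and 3.05 at P7d (difference −0.99). Intronic reads of *Igf2r* and *Kcnq1* may add to the values of *Airn* and *Kcnq1ot1* in these ratios. *Zim1* over *Peg3* was −2.96, −2.69 and −2.96 at E18.5d and −3.78, −4.23 and −4.04 at P7d (difference −1.15, or −0.74 with a pseudocount of 1 FPKM). In all 5 pairs the P7d and E18.5d hearts were apart, which in an exact two-sided permutation test of 3 hearts against 3 gives p = 0.1, the smallest it can reach, or 0.136 after Benjamini-Hochberg adjustment over the 15 tests. At P1d against E18.5d the stages were apart for *Meg3* over *Dlk1* (difference 0.33) and *Zim1* over *Peg3* (−0.48), each with an exact p = 0.1, and overlapped for the other 3 pairs (exact p = 0.3 to 0.5). Between E18.5d and P7d, the paternal gene thus fell by more on this scale in the *Dlk1* pair, and the maternal gene in the other 4 pairs.

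**Figure D4:**
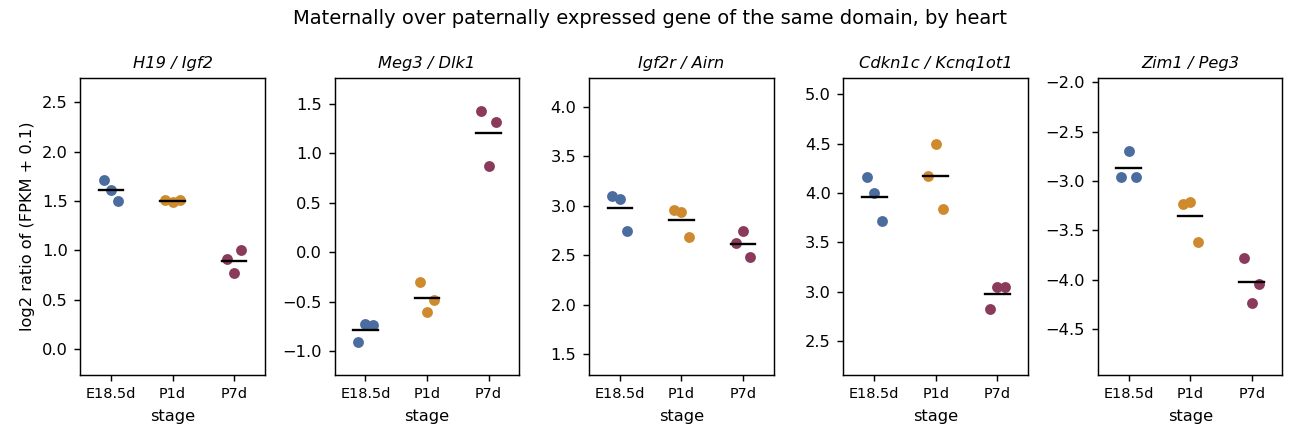
Log2 ratio of (FPKM + 0.1) of the maternally over the paternally expressed gene of 5 domains, 1 dot per heart, with the stage mean as a black bar. Each panel spans 3 log2 units. *Meg3* over *Dlk1* rises from below 0 to at least 0.87, and the other 4 ratios are lowest at P7d.

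The *Peg10* domain of chromosome 6 differed among its genes. *Peg10*, a paternally expressed gene derived from a retrotransposon (chr6:4747306-4760517), was at 7.10, 6.42 and 7.18 FPKM at E18.5d, 2.49, 2.31 and 3.44 at P1d and 1.74, 1.86 and 2.04 at P7d. The stages were apart, with a log2 change of −1.09 ± 0.12 at P1d (limma adjusted p = 9.5e-05). *Sgce*, the paternally expressed epsilon-sarcoglycan of the muscle membrane, starts beside *Peg10* and moved little (30.9, 28.0 and 27.9 FPKM at E18.5d, 26.2, 30.7 and 25.2 at P1d, 25.05, 23.9 and 23.4 at P7d). Its log2 change at P7d was −0.25 ± 0.08 (adjusted p = 0.0257), close to the median of all genes, and did not pass with the median of ratios. *Asb4*, a maternally expressed ubiquitin ligase subunit, went from 8.17, 7.34 and 7.67 FPKM at E18.5d to 4.23, 4.43 and 4.89 at P1d and 4.88, 4.08 and 4.64 at P7d, all of its fall lying before P1d. *Ppp1r9a*, the maternally expressed neurabin that binds actin and protein phosphatase 1, measured 13.2, 13.4 and 15.4 FPKM, then 14.1, 13.2 and 14.9, then 13.2, 9.63 and 12.8, and its log2 change at P7d was −0.23 ± 0.11 (adjusted p = 0.12).

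In the *Snrpn* domain of chromosome 7 the members went in opposite directions. *Snrpn*, the paternally expressed gene of a spliceosomal protein, rose from 15.3, 15.5 and 12.98 FPKM at E18.5d to 18.3, 19.1 and 22.4 at P1d and 20.95, 21.2 and 22.55 at P7d. All E18.5d hearts were below the rest, with a log2 change of 0.54 ± 0.09 at P7d (limma adjusted p = 0.00116). *Snurf* shares its transcript, so that reads of the pair may be split by the counting. *Ndn*, the paternally expressed necdin of the MAGE family, was at 9.68, 11.5 and 9.53 FPKM at E18.5d, 6.60, 9.12 and 7.12 at P1d and 5.90, 6.47 and 6.21 at P7d, with a log2 change of −0.64 ± 0.11 (adjusted p = 0.00143) at P7d. *Magel2*, a related MAGE gene, was at 0.43 to 0.62 FPKM at E18.5d and 0.03 to 0.09 at P7d and was under the filter. Without the filter its log2 change was −0.51 ± 0.06 (limma adjusted p = 0.000478).

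The remaining members stand alone in their domains here. *Peg13*, a paternally expressed non-coding RNA inside an intron of *Trappc9*, rose from 7.67, 7.45 and 6.69 FPKM at E18.5d to 8.74, 9.30 and 8.87 at P1d and 10.2, 9.23 and 9.75 at P7d (log2 change 0.38 ± 0.07, limma adjusted p = 0.00206). The 4725 bases of *Peg13* lie within *Trappc9* on the same strand, so that intronic reads of *Trappc9* may count as *Peg13*. *Trappc9* averaged 8.93 ± 0.27, 10.4 ± 0.31 and 10.1 ± 0.77 FPKM (SD, n = 3) at E18.5d, P1d and P7d. *Nnat*, the paternally expressed neuronatin of the endoplasmic reticulum membrane, fell from 8.67, 8.52 and 8.44 FPKM to 3.76, 3.01 and 3.25 at P7d, with 6.58, 8.55 and 5.35 at P1d. Its log2 change was −1.14 ± 0.13 (adjusted p = 0.000143). *Nnat* lies within *Blcap* on the other strand, and intronic reads of *Blcap* cannot be told from those of *Nnat* without the strand. *Blcap* averaged 18.9, 20.2 and 21.9 FPKM at E18.5d, P1d and P7d. *Slc38a4*, a paternally expressed amino acid transporter, went from 45.1, 42.3 and 39.5 FPKM through 35.2, 34.5 and 34.7 to 28.2, 29.9 and 32.7 (log2 change at P7d −0.47 ± 0.07, adjusted p = 0.000529). *Impact*, the paternally expressed regulator of the kinase GCN2, was at 6.35, 6.84 and 6.85 FPKM at E18.5d, 4.04, 4.03 and 4.88 at P1d and 4.85, 4.25 and 4.29 at P7d, so that the P1d and P7d hearts overlapped below all E18.5d hearts. Its log2 change at P7d was −0.49 ± 0.09 (adjusted p = 0.00149).

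*Mcts2* and *Zrsr1* are paternally expressed retrogenes, copies of genes elsewhere in the genome made from their RNA, so that the counting may split reads between each of them and its parent gene. *Mcts2* was at 14.1, 13.8 and 11.04 FPKM at E18.5d, 14.0, 11.3 and 15.02 at P1d and 10.4, 9.93 and 9.76 at P7d. Its 912 bases lie within *H13* on the same strand, so that intronic reads of *H13* may count as *Mcts2*. *H13* averaged 26.3, 27.2 and 23.5 FPKM at E18.5d, P1d and P7d. *Zrsr1* was at 1.67, 2.30 and 2.15 FPKM at E18.5d, 3.24, 2.91 and 2.74 at P1d and 1.57, 1.25 and 1.53 at P7d, and it shares 412 exonic bases with *Commd1* on the other strand. At P7d against E18.5d the log2 changes were −0.33 ± 0.11 and −0.31 ± 0.11 (limma adjusted p = 0.0359 and 0.0472), and both calls were lost with the median of ratios, with an equal sum and with no filter.

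Further genes reported as imprinted in the mouse, a list of 44 that are not among the 34, were described in the same way. Of the 30 tested, 9 were lower and 3 higher at P7d than at E18.5d, beside 36.9% and 12.5% of all genes. Their median was −0.16, close to that of all genes. The lowest values were those of *Nespas*, an antisense RNA in the *Gnas* domain (4.06 ± 0.39 to 1.48 ± 0.34 FPKM, SD, n = 3, log2 change −1.03), of *Ddc*, dopa decarboxylase (81.4 ± 4.34 to 40.4 ± 2.32 FPKM, −0.995), and of *Cobl*, an actin nucleator (22.0 ± 0.99 to 12.6 ± 1.01 FPKM, −0.76). The highest were those of *Dcn*, the matrix proteoglycan decorin (185 ± 4.45 to 297 ± 3.82 FPKM, 0.68), of *Ampd3*, AMP deaminase 3 (8.61 ± 0.36 to 14.0 ± 0.94 FPKM, 0.64), and of *Pon2*, a paraoxonase (16.7 ± 0.19 to 21.4 ± 2.41 FPKM, 0.33). All 6 passed the limma test (largest adjusted p = 0.00516), and their hearts did not overlap between these stages. *Nespas* overlaps *Gnas* on the other strand, and its reads cannot be told from those of *Gnas* without the strand.

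Of 16 genes linked to the setting or keeping of imprints, 12 were tested. By limma, 4 were lower and 0 higher at P7d than at E18.5d (median −0.28), beside 36.9% and 12.5% of all genes. The lower share was thus no larger than that of all genes. By P1d, 6 were lower and 1 higher, beside 27.6% and 18.4%. *Dnmt1*, the maintenance DNA methyltransferase, averaged 41.7 ± 1.85 FPKM in the E18.5d hearts, 14.75 ± 2.24 in the P1d hearts and 28.2 ± 2.16 in the P7d hearts, lowest at P1d (SD, n = 3). *Uhrf1*, which brings DNMT1 to newly made DNA, was at 35.9 ± 3.92, 7.63 ± 1.83 and 21.3 ± 4.52 FPKM. *Trim28*, a corepressor that holds imprints in the early embryo, was at 176 ± 0.70, 139 ± 6.77 and 124 ± 7.71 FPKM. At P7d against E18.5d the log2 changes of *Dnmt1*, *Uhrf1* and *Trim28* were −0.55, −0.74 and −0.50 (limma adjusted p = 0.00156, 0.00616 and 0.000162).

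Of 13 genes of growth signalling around *Igf2* and *Grb10*, 7 were lower and 3 higher at P7d than at E18.5d (median log2 change −0.51), beside 36.9% and 12.5% of all genes, and 10 were lower and 1 higher at P7d than at P1d, beside 28.6% and 15.5%. *Igf2bp1*, an RNA-binding protein of *Igf2* mRNA, went from 9.91 ± 1.43 FPKM at E18.5d to 1.52 ± 0.46 at P7d (log2 change −2.12). *Igfbp2* and *Igfbp3*, which bind IGF in the fluid around cells, went from 11.7 ± 2.504 to 2.20 ± 0.15 FPKM (−1.97) and from 24.2 ± 2.09 to 7.78 ± 0.25 FPKM (−1.52). Higher at P7d were *Igfbp7*, a matrix protein related to them (54.4 ± 6.49 to 153.55 ± 11.4 FPKM, 1.48), *Irs2*, a docking protein of the insulin receptor (4.19 ± 0.24 to 5.90 ± 0.92 FPKM, 0.40), and *Insr*, the insulin receptor itself (42.9 ± 1.25 to 54.1 ± 3.90 FPKM, 0.32). *Irs2* stood at 19.95 ± 1.77 FPKM at P1d, above both other stages. All 6 passed the limma test (largest adjusted p = 0.0217).

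Markers of other cell types of the heart moved over the same days. The summed FPKM of 10 fibroblast and epicardial genes was 1883 to 1985 at E18.5d and 2464 to 2551 at P7d. Of these 10, 2 were lower and 2 higher by limma, beside 36.9% and 12.5% of all genes, with a median log2 change of −0.07. *Col3a1* alone was at 681 to 740 FPKM at E18.5d and 1194 to 1211 at P7d. The epicardial genes *Upk3b* (14.2 to 17.7 FPKM, then 5.78 to 7.04) and *Tbx18* (8.38 to 9.55, then 4.66 to 4.71) went the other way. The sum of 7 smooth muscle and pericyte genes was 165 to 203 and 314.5 to 341, with 0 lower and 4 higher by limma. Endothelial genes summed to 425 to 459 and 529 to 549.7 FPKM, with 2 lower and 5 higher of 8. Skeletal muscle genes, tested in 4 of 8, were all lower at P7d, and their sum, most of it from *Ckm*, which heart muscle also makes, was 1866 to 1898 FPKM at E18.5d and 1496 to 1591 at P7d. *Myh8* went from 4.37 to 5.35 FPKM at E18.5d to 1.55 to 1.97 at P7d, and *Tnni2* from 5.88 to 7.96 to 3.32 to 3.80. The log2 change of *Mylpf* at P7d against E18.5d was −1.25 ± 0.23 (SE). *Myod1*, *Myog* and *Myh3* were at most 0.33 FPKM in any heart. Neuron and glia genes summed to 9.48 to 15.96 FPKM at E18.5d and 6.05 to 7.62 at P7d, with 2 lower of 4 tested. Erythroid genes varied between 8421 and 24734 FPKM, and macrophage genes between 51.8 and 90.8, over all hearts. Their part in the levels of the imprinted genes was not tested.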

How the data were processed

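RNA of 9 mouse hearts, 3 each at E18.5d, P1d and P7d, was compared, grouped by stage as labelled. The table that the authors deposited gives FPKM to 2 decimals in 1 column per heart, and the submitters' processing notes name STAR, GRCm38 and mm10, while the counting tool and the annotation are not given in the sources used here. The methods text to which the paper refers for transcriptomics was not used here. FPKM are not counts. Depth was read from the steps of low values, of which 82.5% to 88.5% were whole fragments (tolerance 0.006 FPKM) against 18.3% to 23.9% by chance. Gene positions came from GENCODE M21, and start windows from RefSeq on GRCm38.p6.

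Genes averaging 1 FPKM or more were fitted on log2(FPKM + 1) with limma 3.58.1 in R 4.3.3 (eBayes with trend), all 9 hearts in 1 fit without covariates, Benjamini-Hochberg adjusted with a threshold of 0.05. This scale understates changes of low genes. In simulated data of 13618 genes, 200 were changed by 1 (log2) at P7d. Against E18.5d, 180 of these 200 were called, and 9 unchanged genes. In the hearts themselves 1706 genes were called higher and 5025 lower, so that the simulation does not give the rate of false calls there. Ratios used a pseudocount of 0.1 FPKM and exact permutation tests (scipy 1.17.1). Figures were drawn with matplotlib 3.10.9. The labels call the hearts biological replicates, so that p-values measure the spread between these hearts. The replicate numbers did not pair the hearts.

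The members, the lists of other genes and the tests were chosen with earlier results of these data known. All 34 members are named, those with a stage mean of at least 5 FPKM with every heart, and from each of the 3 further lists the 3 largest changes in each direction among genes that passed the test without overlap between P7d and E18.5d hearts. Alternatives were a pseudocount of 0.1, no filter, quantile normalization, median of ratios, equal column sums, a replicate block, eBayes without trend, only hearts that bore out the male label, and leaving out each heart. The *Xist* term was added after seeing the data.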

Additional observations from a re-analysis of the deposited data

How the results depend on the processing

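The counts of imprinted genes kept their size within 1.5 times under most alternatives, and the cause of the exceptions was not tested unless fewer samples show it. With only the hearts that bore out the male label, which are fewer, limma called 8 lower and 0 higher at P7d and 3 lower and 0 higher at P1d, both against E18.5d, and 8 lower at P7d than at P1d. For P1d against E18.5d, 0 imprinted genes were higher with an equal sum and 1 with the *Xist* term, beside 1175 and 1607 of all genes. At P7d against P1d, 1 was higher with the median of ratios and 2 with quantile normalization, beside 2986 and 2879 of all genes. With the replicate block, 2 were higher and 23 lower, 3 higher and 16 lower, and 0 higher and 19 lower in the 3 comparisons. Of all genes, 1706 were then higher and 4961 lower, 2487 higher and 3686 lower, and 2040 higher and 3817 lower. Same-numbered hearts did not deviate together (correlations −0.05 to 0.11).

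The median log2 change of the paternal genes at P7d against E18.5d was −0.94 with a pseudocount of 0.1, −0.66 with the median of ratios and −0.67 with quantile normalization, and that of the maternal genes was −1.21 with no filter, −1.11 with the median of ratios and −1.14 with quantile normalization. For P1d against E18.5d the equal sum gave −0.44 for paternal and −0.66 for maternal genes, and the maternal median was −0.60 with only the hearts that bore out the label and −0.58 with the *Xist* term. At P7d against P1d the paternal median was −0.71 with a pseudocount of 0.1 and −0.37 with no filter. The maternal median was −0.53 with no filter, −0.68 with an equal sum and −0.71 with both other scalings. The medians with no filter are over more genes, 20 paternal and 12 maternal, which include those of low level.

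Leaving out each heart gave 22 to 24 imprinted genes lower at P7d than at E18.5d, beside 4058 to 5325 of all genes. At P1d it gave 13 to 17 lower and 2 to 3 higher, beside 3065 to 3676 and 1988 to 2646. At P7d against P1d it gave 16 to 19 lower, beside 3061 to 3821. The maternal median at P1d against E18.5d then lay between −0.55 and −0.42. At P7d against E18.5d, *Sgce* lost its call without E18.5d heart 1 or P7d heart 2 or 3, *Mcts2* without E18.5d heart 1 or 2 or any P7d heart, and *Zrsr1* without any heart other than E18.5d heart 1. At P1d against E18.5d, *Usp29* lost it without any E18.5d heart, P1d heart 2 or 3 or P7d heart 2, and *Gnas* without E18.5d heart 1 or 2, P1d heart 1 or 3 or P7d heart 1 or 3. At P7d against P1d, *Peg10* lost it without P1d heart 3 or P7d heart 1 or 2, *Mcts2* without P1d heart 1 or 3 or P7d heart 2 or 3, and *Slc38a4* without E18.5d heart 2, any P1d heart or P7d heart 1 or 2. At P1d, *Meg3* lost its call without E18.5d heart 2, *Ndn* without E18.5d heart 2 or P1d heart 1 or 3, and *Zrsr1* without E18.5d or P1d heart 1. Without P1d heart 2, *Nnat* passed at P1d and *Kcnq1ot1* at P7d against P1d.

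Values that turned sign were all near 0 and did not pass the test, except *Gnas* at P7d against E18.5d with quantile normalization (0.20, and 0.057 with the median of ratios). Between P1d and E18.5d, the equal sum gave −0.15 for *Peg3*, −0.15 for *Ppp1r9a*, −0.067 for *Airn*, −0.15 for *Plagl1* and −0.11 for *Mcts2*. *Igf2r* was at 0.063 with the median of ratios and 0.057 with quantile normalization. With only the hearts that bore out the label, *Peg3* was at −0.0014, *Plagl1* at −0.13 and *Mcts2* at −0.042. With the *Xist* term, *Peg3* was at −0.025, *Ppp1r9a* at −0.038, *Plagl1* at −0.052 and *Mcts2* at −0.023. Leaving out each heart gave −0.054 to 0.12 for *Peg3*, −0.030 to 0.074 for *Ppp1r9a*, −0.080 to 0.11 for *Igf2r*, −0.047 to 0.093 for *Plagl1* and −0.057 to 0.16 for *Mcts2*, and at P7d against P1d −0.042 to 0.064 for *Asb4* and −0.0088 to 0.12 for *Impact*.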
